A study of Mus musculus with 6 samples.

Results

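Fatty acid oxidation and ketogenesis were followed through 35 genes in the livers of mice with and without Gpr146, a G protein-coupled receptor. The genes were chosen from a fixed list of names covering carnitine-dependent import, mitochondrial and peroxisomal β-oxidation, ketone bodies and genes known to respond to PPARα. All 35 were present among the 22180 genes that the array table names singly, and 34 of them passed the filter on low signal. Of the 35, 17 encode mitochondrial steps, 10 peroxisomal steps and 3 enzymes found in both organelles, and 5 are ketone, fuel-switch and PPARα-responsive genes.

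The mice were male, 24 weeks old and of the C57BL/6J background, and the controls were littermates. The WT group had 3 mice with intact Gpr146, and the KO group had 3 mice lacking it in the whole body, so the loss was not limited to hepatocytes. Both groups ate chow, were fasted for 16 hours and were refed for 6 hours before the liver was taken. The values are log2 signals, 1 array per mouse, and a difference is KO minus WT on that log2 scale unless stated.

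In a fasted liver, fatty acids enter mitochondria as acyl-carnitines and are shortened to acetyl-CoA by repeated dehydrogenation, hydration, a second dehydrogenation and thiolysis. Peroxisomes run a parallel chain on very long, branched and dicarboxylic acids and pass shortened products on to mitochondria. When acetyl-CoA is plentiful, mitochondria turn it into ketone bodies for other organs. The nuclear receptor PPARα, which binds DNA with RXR, drives many of these genes during fasting, and refeeding with its insulin rise lowers its activity.

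The sequences upstream of 3 carnitine-dependent import and export genes are shown because all 5 genes of that step had negative differences. They are the 250 bases before the start site, from RefSeq on GRCm38.p6, read 5′ to 3′ on the gene's strand, and capitals mark the motifs searched on both strands. Crot lies at chr5:8997147-8997396 on the minus strand, Slc25a20 at chr9:108661886-108662135 and Cpt1a at chr19:3323051-3323300, both on the plus strand.
Crot: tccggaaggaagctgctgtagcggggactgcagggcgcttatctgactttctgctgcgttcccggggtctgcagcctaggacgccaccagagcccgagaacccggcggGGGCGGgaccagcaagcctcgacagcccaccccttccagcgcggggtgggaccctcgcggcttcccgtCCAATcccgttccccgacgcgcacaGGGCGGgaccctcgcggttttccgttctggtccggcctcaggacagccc
Slc25a20: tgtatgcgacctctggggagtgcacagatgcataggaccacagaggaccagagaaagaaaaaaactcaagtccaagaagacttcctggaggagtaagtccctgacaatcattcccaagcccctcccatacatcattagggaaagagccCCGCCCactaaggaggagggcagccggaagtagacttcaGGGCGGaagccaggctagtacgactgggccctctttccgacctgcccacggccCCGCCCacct
Cpt1a: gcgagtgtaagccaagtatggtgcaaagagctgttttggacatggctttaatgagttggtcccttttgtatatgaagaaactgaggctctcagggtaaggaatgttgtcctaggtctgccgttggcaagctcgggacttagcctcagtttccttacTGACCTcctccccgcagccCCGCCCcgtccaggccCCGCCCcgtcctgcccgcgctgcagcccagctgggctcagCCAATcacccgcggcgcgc

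The motifs were AGGTCA, the core recognised by PPARα and RXR; AGGTCANAGGTCA, its direct repeat with 1 base between; the CCAAT box; and GGGCGG, the GC box. Windows from 250 bases before to 50 after the start site were at hand for 29 of the 35 genes, 32 windows in all. AGGTCA was in 4 of them (12.5%), those of Cpt1a, Acadm, Acadvl and Echs1, against 16.3% of all 32851 windows. In Cpt1a it lies 94 to 89 bases before the start, on the opposite strand. The direct repeat was in 0 of the 32, and in 0.0396% of all windows. CCAAT was in 13 (40.6%, against 37.4%) and the GC box in 22 (68.8%, against 35.7%). A match is a description of letters and not a bound site.

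The receptor itself separated the genotypes. Gpr146 read 5.96, 5.56 and 5.65 across the numbered WT mice and 4.61, 4.28 and 3.87 across the numbered KO mice, with no overlap (difference -1.47 ± 0.19 SE; limma adjusted p = 0.0702). It missed the threshold, but passed with WT mouse 3 left out (limma adjusted p = 0.0268), under median centring (0.0204) and under a robust fit with a trend (0.0272); over all alternatives the adjusted p reached 0.268. Whether its probes lie in the deleted part was not analysed here. Array medians lay between 2.67 and 2.73, any pair of arrays correlated at 0.983 to 0.988, and Alb, the main plasma protein of hepatocytes, averaged 11.92 ± 0.02 (SD) for the WT mice and 11.91 ± 0.01 for the KO mice (n = 3). Each mouse is a separate animal, and a lower liver signal cannot be told apart from fewer cells of a type that carries the RNA.

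None of the oxidation and ketogenesis genes passed the threshold between KO and WT. With limma fitted over 11090 genes and a Benjamini-Hochberg adjusted p under 0.05, 0 of 34 were called, against 4 genes or 0.0361% of all tested (0.0271% higher and 0.00902% lower in KO). Their adjusted p-values ran from 0.502 to 0.996. At an unadjusted limma p under 0.05, 1 of 34, Crot, was lower in KO and 0 were higher, where 2.98% of all genes were lower and 6.16% higher.

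Most of the differences were negative. They numbered 25 of 34 (73.5%), where 42.3% of all genes tested were negative, and the median was -0.07 against 0.03 for all genes. The KO mice all lay below the WT mice in 9 of them (26.5%; 5.16% of all genes) and above in 1, Acaa2 (9.63% of all genes). The 9 were Cpt1a, Cpt2, Crot, Acad11, Hadh, Echs1, Decr2, Abcd3 and Vnn1, and their differences lay between -0.29 and -0.08. Quantile normalization gave 27 negative differences, with 52.9% of all genes negative, and median centring gave 26, with 46.4%. Array weights gave 21 negative differences among the 34, with 43.0% of all genes negative.

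**Figure D1:**
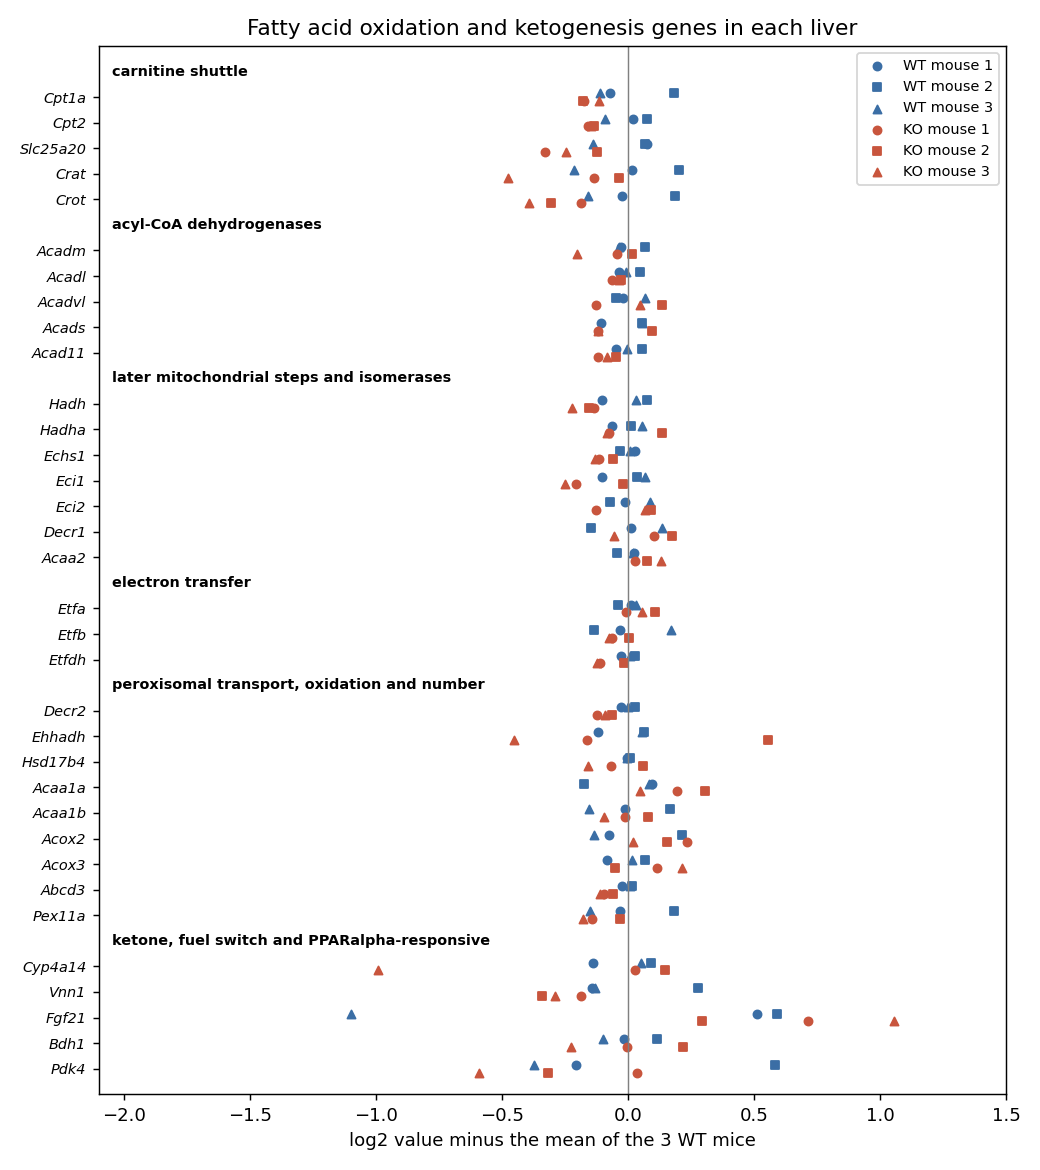
Each of the 34 genes that passed the signal filter has 6 points, the log2 value of each mouse minus the mean of the 3 WT mice, with genes grouped by role, blue for WT, red for KO and the marker shape for the mouse number. Red points lie to the left of all blue points in 9 genes, and the widest spreads are those of Fgf21, Cyp4a14, Ehhadh and Pdk4.

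The intervals bounded the difference closely for most of these genes, as they did for most of all genes tested. The 95% interval of the limma difference lay inside a 1.5-fold change in either direction for 31 of 34, and for 88.0% of all genes tested. That held for all 16 mitochondrial genes above the filter and all 10 peroxisomal genes. The 3 with wider intervals were Fgf21, Cyp4a14 and Pdk4. These intervals are per gene and are not adjusted for the number of genes.

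The carnitine system carries acyl groups across membranes. All 5 of its genes had negative differences, between -0.29 and -0.15 with a median of -0.22, and 3 of them had no overlap between the groups (over all genes, 42.3% were negative and 5.16% separated downward). The median was -0.12 with WT mouse 2 left out, an animal that was the highest of the 6 mice in 4 of these genes. No gene of the step passed the threshold. The groups set at the start were mitochondrial and peroxisomal genes. Grouping by step was added and cuts across them, as Crot is peroxisomal and Crat is in both organelles.

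Crot, the peroxisomal carnitine octanoyltransferase that prepares shortened chains for export, measured 9.40, 9.61 and 9.26 in WT and 9.24, 9.12 and 9.03 in KO, mice 1 to 3 in order here and for every gene that follows. The highest KO value lay just below the lowest WT value. WT signal was 1.23-fold that of KO, at -0.29 ± 0.12 (SE; 95% interval -0.56 to -0.03; limma adjusted p = 0.502). Over the alternatives the adjusted p lay between 0.387 and 0.763. The exact permutation p was 0.1, the smallest that 3 against 3 mice can give, so no gene here could fall below 0.05 in that test.

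Slc25a20, the carnitine-acylcarnitine translocase of the inner mitochondrial membrane, measured 8.45, 8.44 and 8.24 in WT and 8.05, 8.25 and 8.13 in KO. KO mouse 2 lay above WT mouse 3, so the groups overlapped. Its difference was -0.23 ± 0.10 (SE; limma adjusted p = 0.555).

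Cpt1a, the malonyl-CoA-sensitive transferase of the outer membrane that sets the rate of entry, measured 9.48, 9.73 and 9.44 in WT and 9.38, 9.37 and 9.44 in KO. WT mouse 2 was the highest, and the gap between the lowest WT and the highest KO mouse was within rounding. Its difference of -0.16 ± 0.11 (limma adjusted p = 0.677) was -0.06 without WT mouse 2.

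Cpt2, which releases the acyl group again inside mitochondria, measured 8.29, 8.34 and 8.18 in WT and 8.11, 8.13 and 8.12 in KO. The KO mice lay close together (SD 0.01), all below WT, at a difference of -0.15 ± 0.09 (SE; limma adjusted p = 0.647). Crat, the short-chain carnitine acetyltransferase of mitochondria and peroxisomes, measured 6.95, 7.14 and 6.72 in WT and 6.80, 6.90 and 6.46 in KO, with overlap. Its difference of -0.22 ± 0.15 (SE) moved to -0.12 with WT mouse 2 left out and to -0.09 with KO mouse 3 left out. A second Crat probe set, near the signal filter at 3.01 to 3.75, was highest in KO mouse 2. Averaging both probe sets gave -0.03 for Crat and a median of -0.16 for the 5 carnitine genes.

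**Figure D2:**
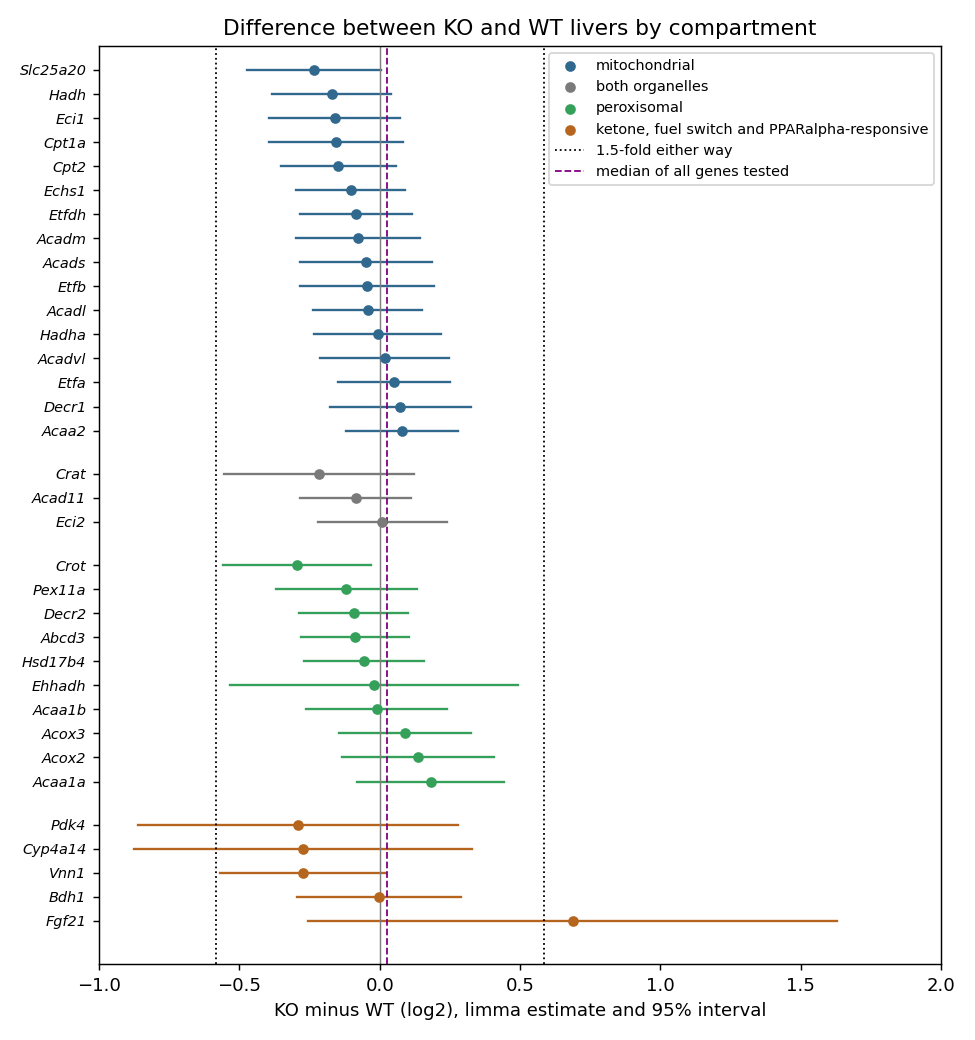
Points are limma differences between KO and WT (log2) with 95% intervals for the 34 genes, coloured by compartment; dotted lines mark a 1.5-fold change and the dashed line the median of all genes tested, 0.03. Crot has the only interval that leaves out 0, and mitochondrial and peroxisomal genes cover overlapping ranges.

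The acyl-CoA dehydrogenases make the first double bond, each for its own chain length. They were the most even step, at -0.08 to 0.02 over 5 genes with a median of -0.05. Acadm, the medium-chain enzyme, measured 10.19, 10.29 and 10.19 in WT and 10.18, 10.24 and 10.02 in KO, where KO mice 1 and 3 lay below the WT group and KO mouse 2 within it. Acadl, the long-chain enzyme, was at -0.04 ± 0.09 (SE), Acads, the short-chain enzyme, at -0.05 ± 0.10 and Acadvl, the very-long-chain enzyme of the inner membrane, at 0.02 ± 0.10. Acad11, a dehydrogenase placed in both organelles, measured 8.98, 9.08 and 9.02 in WT and 8.91, 8.98 and 8.94 in KO. Its groups were separated by a narrow margin, at -0.08 ± 0.09 (limma adjusted p = 0.809).

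The electrons from these enzymes pass through the electron transfer flavoprotein, made of Etfa and Etfb, to the membrane oxidoreductase Etfdh. The differences were 0.05 ± 0.09, -0.05 ± 0.10 and -0.08 ± 0.09 (SE), and the groups overlapped in each.

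Later mitochondrial steps had a median of -0.01 over 7 genes, with 4 negative, and held the only gene separated upward. Hadh, the dehydrogenase of medium and short hydroxyacyl chains, measured 9.95, 10.13 and 10.09 in WT and 9.92, 9.90 and 9.83 in KO. All KO mice lay below WT, at -0.17 ± 0.09 (SE; limma adjusted p = 0.614). Echs1, the short-chain enoyl-CoA hydratase, measured 8.80, 8.74 and 8.78 in WT and 8.66, 8.72 and 8.64 in KO, also without overlap, at -0.10 ± 0.09.

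Acaa2, a mitochondrial thiolase, ran the other way. It measured 9.84, 9.78 and 9.84 in WT and 9.85, 9.90 and 9.95 in KO, so every KO mouse was above WT, at 0.08 ± 0.09 (limma adjusted p = 0.826). Hadha, the alpha subunit of the trifunctional protein for long chains, was at -0.01 ± 0.10. Its partner subunit Hadhb lay between 1.94 and 2.23 in all 6 mice, under the filter at 2.99, and was not tested. Whether its probe set reads the Hadhb transcript was not analysed here.

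The auxiliary enzymes that handle double bonds of unsaturated acids did not share a sign. Eci1, the mitochondrial enoyl-CoA isomerase, was at -0.16 ± 0.10 (SE) and Eci2, found in both organelles, at 0.01 ± 0.10. Eci2 turned to -0.01 with quantile normalization and to -0.005 with median centring. Decr1, the mitochondrial dienoyl-CoA reductase, was at 0.07 ± 0.11.

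Peroxisomal steps had a median of -0.04 over 10 genes, from -0.29 to 0.18, with 7 negative. Abcd3, the transporter that admits acyl groups to the peroxisome, measured 9.83, 9.87 and 9.86 in WT and 9.76, 9.80 and 9.74 in KO. The replicates were tight (SD 0.02 and 0.03) and the groups did not overlap, at -0.09 ± 0.08 (SE; limma adjusted p = 0.789). Decr2, the peroxisomal dienoyl-CoA reductase, measured 9.44, 9.50 and 9.47 in WT and 9.34, 9.40 and 9.38 in KO. It too was separated, at -0.09 ± 0.08.

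Other peroxisomal genes lay on both sides of 0. Acox2 and Acox3, oxidases for bile acid precursors and branched chains, were at 0.14 ± 0.12 and 0.09 ± 0.10 (SE). With a mouse left out they ranged from 0.07 (WT mouse 3) to 0.24 (WT mouse 2) for Acox2 and from 0.03 (KO mouse 3) to 0.16 (KO mouse 2) for Acox3. Hsd17b4, the bifunctional protein for branched and very long chains, was at -0.06 ± 0.09, with its WT mice within an SD of 0.01. Pex11a, which promotes peroxisome division, was at -0.12 ± 0.11, and -0.03 without WT mouse 2. The thiolases Acaa1a and Acaa1b are close paralogs whose probes may share signal, and they were at 0.18 ± 0.11 and -0.01 ± 0.11. Acaa1a was at 0.09 and Acaa1b at 0.07 without WT mouse 2.

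Ehhadh, the bifunctional enzyme of the peroxisomal chain most responsive to PPARα, varied among the KO mice far more than among WT. It measured 9.03, 9.21 and 9.20 in WT (SD 0.10) and 8.98, 9.70 and 8.70 in KO (SD 0.52). KO mouse 2 stood above the whole WT group, and KO mouse 3 beneath it. The mean difference of -0.02 ± 0.22 (SE) ran from -0.31 without KO mouse 2 to 0.20 without KO mouse 3.

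Set side by side, mitochondrial and peroxisomal genes covered overlapping ranges. Mitochondrial genes had a median difference of -0.06 over 16 genes, from -0.23 to 0.08, with 12 negative (75.0%), and peroxisomal genes one of -0.04 with 7 of 10 negative (70.0%). All KO mice were below all WT mice in 4 of 16 and 3 of 10, and in 5.16% of all genes. The matching steps gave 0.07 for Decr1 and -0.09 for Decr2, and 0.08 for Acaa2 against 0.18 and -0.01 for Acaa1a and Acaa1b. The carnitine transferases Cpt1a, of mitochondrial import, and Crot, of peroxisomal export, are not the same step and were at -0.16 and -0.29. No test of mitochondrial against peroxisomal genes was run, since the genes were chosen as a list. Counting Crat, Acad11 and Eci2 with either organelle left the medians at -0.08 and -0.06.

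**Figure D3:**
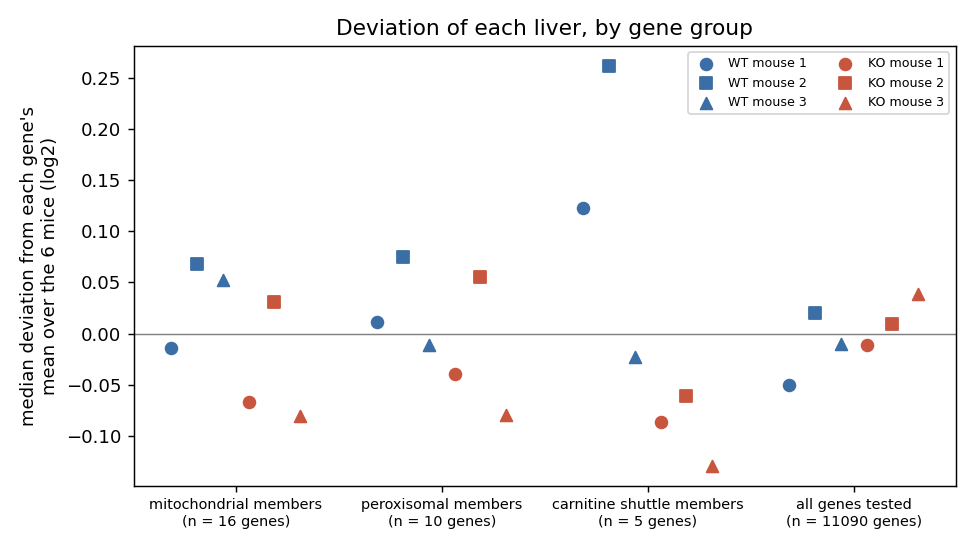
Each point is 1 mouse, the median over a gene group of the log2 deviation from each gene's mean over the 6 mice (blue WT, red KO, shape for the mouse number). In mitochondrial and peroxisomal genes KO mouse 2 lies among the WT mice, in the 5 carnitine genes all KO mice lie below all WT mice, and over all genes tested KO mouse 3 is the highest.

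Single animals stood out across many of these genes. Median deviations of the mitochondrial genes were -0.01, 0.07 and 0.05 in WT and -0.07, 0.03 and -0.08 in KO. For peroxisomal genes they were 0.01, 0.08 and -0.01 in WT and -0.04, 0.05 and -0.08 in KO. The groups overlapped in both, through KO mouse 2. For the 5 carnitine genes they were 0.12, 0.26 and -0.02 in WT and -0.09, -0.06 and -0.13 in KO.

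WT mouse 2 was the highest of the 6 mice in 15 of the 34 genes (44.1%) and in 20.3% of all genes tested. KO mouse 3 was the lowest in 15 (44.1%), and in 12.3% of all genes, although it was the highest animal in 25.6% of them. Leaving out WT mouse 2 gave a median over the 34 genes of -0.04 with 24 negative differences, and leaving out KO mouse 3 gave -0.02 with 21. Without KO mouse 2 it was -0.11, with 27 negative. Over all genes the negative share was 38.1% without WT mouse 2, 46.6% without KO mouse 3 and 42.7% without KO mouse 2. The peroxisomal median moved to -0.01 with WT mouse 2 left out and to 0.01 with KO mouse 3 left out.

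Markers of other cell types also differed among these animals. The mean deviation of 6 Kupffer cell markers was 0.54, -0.41 and -0.32 in WT and -0.21, -0.002 and 0.40 in KO. That mean was lowest in WT mouse 2 and high in KO mouse 3, but WT mouse 1 was the highest. The median deviation was 0.41, -0.24 and -0.31 in WT and -0.22, 0.02 and 0.46 in KO. It was lowest in WT mouse 3, the lowest animal in 4 of the 6 markers. It was highest in KO mouse 3, the highest animal in 4. Marco alone read 6.86 in WT mouse 1 and 3.98 in WT mouse 2. Of the 6, 0 passed the threshold and 5 had positive differences, and all, Clec4f and Timd4 included, were above the signal filter. Stellate cell markers, 6 of 6 above the filter, averaged -0.16, 0.29 and 0.10 in WT and 0.12, -0.13 and -0.22 in KO, highest in WT mouse 2 and lowest in KO mouse 3 like the oxidation genes. Of them 0 passed and 5 had negative differences, with a median of -0.18. Sinusoidal endothelial markers, 6 of 6 above the filter, averaged 0.006, 0.17 and -0.15 in WT and 0.03, -0.12 and 0.06 in KO. They were highest in WT mouse 2 and lowest in WT mouse 3, and 0 passed. Bile duct markers, 2 of them above the filter, averaged -0.31, 0.04 and -0.15 in WT and 0.25, 0.05 and 0.12 in KO. Of these 0 passed, and Sox9 was separated upward at 0.41 (9.63% of all genes were separated upward). Pancreatic acinar markers, 2 of them above the filter, averaged 1.22 in WT mouse 1 and -0.55 to -0.11 in the other mice, and 0 passed. The part of these cell types in the result was not tested. Among 6 hepatocyte markers 0 passed and the median difference was 0.01. Their mean deviation was -0.01, -0.12 and -0.009 in WT and -0.05, 0.07 and 0.13 in KO. That mean was lowest in WT mouse 2 and highest in KO mouse 3. Serpina1e had the largest difference of the 6, 0.61, and read 8.86 in WT mouse 2 and 10.33 in KO mouse 3. The median deviation lay between -0.03 and 0.03 in all 6 mice. The part of hepatocyte markers in the result was not tested either. None of the markers of B and plasma cells or of neutrophils and monocytes was above the filter.

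The ketone, fuel-switch and PPARα-responsive genes had the widest spread between mice. Vnn1, pantetheinase, a liver gene strongly responsive to PPARα, measured 7.80, 8.22 and 7.81 in WT and 7.76, 7.60 and 7.65 in KO. Every KO mouse was lower, with WT mouse 2 apart at the top. The difference was -0.27 ± 0.13 (SE; limma adjusted p = 0.569) and -0.14 without WT mouse 2.

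Cyp4a14, an omega-hydroxylase that makes dicarboxylic acids, measured 10.54, 10.76 and 10.73 in WT and 10.70, 10.82 and 9.68 in KO. KO mouse 3 alone stood apart, and the difference of -0.27 ± 0.26 was 0.09 without it. Other Cyp4a genes are near-identical in sequence, so its probes may read them too. Pdk4, the kinase that shuts pyruvate dehydrogenase in fasting, measured 4.09, 4.88 and 3.92 in WT and 4.33, 3.98 and 3.70 in KO. Its difference of -0.29 ± 0.25 was 0.0009 without WT mouse 2.

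Fgf21, a fasting hormone secreted by the liver, had the largest difference of the 34 and the largest error. It measured 5.48, 5.56 and 3.87 in WT and 5.69, 5.27 and 6.03 in KO. WT mouse 3 was the low animal, and the other 5 overlapped. The difference of 0.69 ± 0.41 (SE; limma adjusted p = 0.646) was 0.14 without that mouse. Bdh1, which interconverts the ketone bodies acetoacetate and β-hydroxybutyrate, measured 8.10, 8.24 and 8.02 in WT and 8.12, 8.34 and 7.89 in KO, a difference of -0.004 ± 0.13.

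**Figure D4:**
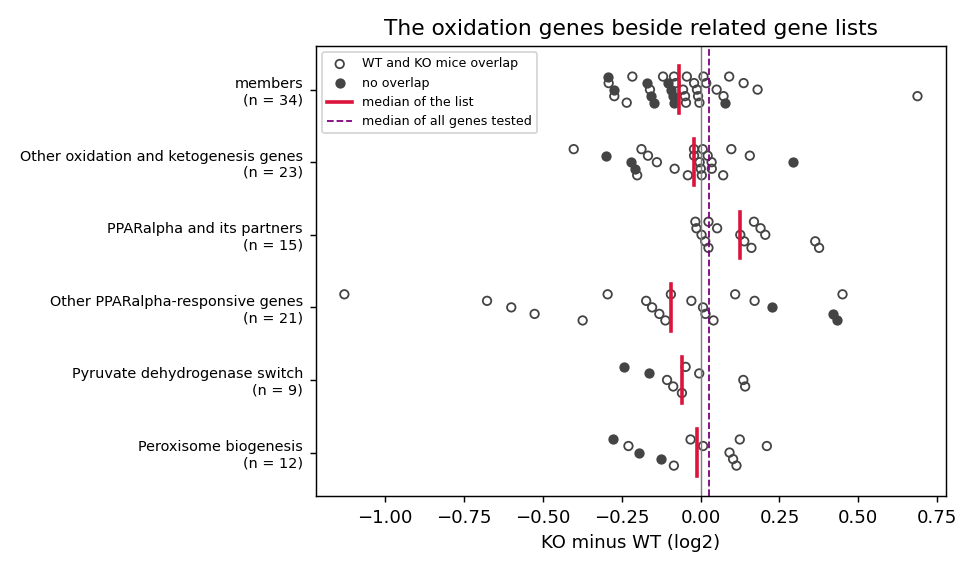
Points are differences between KO and WT (log2) of the 34 genes and of 5 related lists, filled where the groups do not overlap; red bars are list medians and the dashed line is the median of all genes tested, 0.03. The list of PPARα and its partners lies mostly to the right of 0, with a median of 0.13, and the responsive genes spread widest, from -1.13 to 0.45.

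Related lists gave no calls either. Of the other oxidation and ketogenesis genes 23 were tested, and 0 passed, with 13 negative and a median of -0.02. Bdh2, a cytosolic dehydrogenase, measured 5.01, 4.89 and 4.87 in WT and 5.07, 5.14 and 5.45 in KO, at 0.29 ± 0.12 (SE; limma adjusted p = 0.509) and 0.18 without KO mouse 3. Hacl1, which splits branched acyl chains in peroxisomes, Hsd17b10, a mitochondrial dehydrogenase, and Eci3, an isomerase, were separated downward at -0.22, -0.21 and -0.30. Eci3 lay close to the signal filter, and these 3 were picked out with their values in view. Of the 23 genes tested, 3 were separated downward and 1 upward, where 5.16% and 9.63% of all genes were.

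PPARα and its partners mostly had positive differences, and none was called. Of 15 tested, 13 had positive differences, where 6402 of all 11090 genes did. The median was 0.13, and the groups overlapped in all 15. Quantile normalization left 9 positive, with a median of 0.08, where 5222 of 11090 genes were positive. Without that normalization, the median came to 0.02 with WT mouse 1 left out and 0.04 with KO mouse 3 left out. It was 0.15 with WT mouse 2 left out and highest, at 0.19 with all 15 positive, with KO mouse 1 left out. Ppara itself measured 7.17, 7.20 and 7.19 in WT and 7.21, 7.20 and 7.22 in KO, a difference of 0.03 ± 0.08 (SE). Ppargc1b, a coactivator of mitochondrial genes close to the signal filter, was at 0.36 ± 0.12 (limma adjusted p = 0.423) and at 0.14 with a pseudocount of 16 on the linear scale. Ppara falls outside the naming rule and was picked out with its values in view.

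Other PPARα-responsive genes gave 12 negative and 9 positive differences over 21, with a median of -0.09, and 0 passed. Plin5, which couples lipid droplets to mitochondria, measured 6.38, 6.38 and 6.43 in WT and 6.72, 6.88 and 6.85 in KO. All KO mice were higher by a margin wider than the spread within either group, at 0.42 ± 0.09 (SE; limma adjusted p = 0.277; 0.182 to 0.517 over the alternatives). Slc25a42, the mitochondrial coenzyme A carrier, was separated upward at 0.43 ± 0.12 (adjusted p = 0.358), and so was Mgll, monoglyceride lipase, at 0.23 ± 0.10 (0.528). Acot3, a peroxisomal thioesterase, measured 6.03, 6.55 and 4.95 in WT and 5.16, 4.85 and 4.13 in KO. It overlapped through WT mouse 3, at -1.13 ± 0.39 (0.437), and was at -1.57 without that mouse (0.0810) and at -0.78 without WT mouse 2. Of the 21 genes, 3 were separated upward and 0 downward, where 9.63% and 5.16% of all genes were.

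The pyruvate dehydrogenase switch and the peroxins had 0 calls among 9 and 12 genes tested. Pdha1, the catalytic subunit that Pdk4 phosphorylates, measured 6.66, 6.67 and 6.88 in WT and 6.43, 6.47 and 6.58 in KO, without overlap, at -0.24 ± 0.10 (SE; limma adjusted p = 0.522). Mpc1, a subunit of the pyruvate carrier, was also separated, at -0.16, and was picked out afterwards. Pex19, which carries membrane proteins to the peroxisome, measured 7.73, 7.80 and 7.65 in WT and 7.29, 7.60 and 7.47 in KO, at -0.28 ± 0.11 (adjusted p = 0.492). The peroxins Pex13 and Pex3, at -0.20 and -0.13, were separated as well and were likewise picked out afterwards. Of the 12 peroxins, 6 had positive differences. Separated downward were 2 of the 9 genes of the switch and 3 of the 12 peroxins, where 5.16% of all genes were. None of those tested was separated upward, where 9.63% of all genes were.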

How the data were processed

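The authors deposited log2 values, 41345 probe sets by 6 arrays, from biotinylated cRNA of a whole-transcript Affymetrix assay, per the labels' protocols. Neither the labels nor the file headers used here state the summarisation or normalization, and the log2 scale was inferred from maxima above 12.1. Of the probe sets 23521 have 1 symbol in the platform annotation, with symbols updated through GRCm38.p6 gene numbers; 1814 with several symbols and 16010 unnamed ones were left out. The probe set with the highest mean over the 6 arrays stood for each gene. Testing covered 11090 genes, those whose mean signal was in the upper 50% (log2 of 2.99 or more), with limma 3.58.1 in R 4.3.3 (lmFit, eBayes, two-sided, no covariate, Benjamini-Hochberg over all genes at 0.05), with single genes also by exact permutation. The script was tested on data with known changes. The median SE was 0.11; the number of arrays limits the precision.

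The members, lists and tests were chosen with earlier results of these data known. Every member was named; from each related list, up to 4 genes of smallest p with unadjusted p under 0.05, otherwise the lowest 2. Alternatives were the signal filter, probe set averaging, median centring or quantile normalization of the arrays, limma's trend with robust options, its array weights, a pseudocount of 16, the replicate block and each mouse left out.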

Additional observations from a re-analysis of the deposited data

How the results depend on the processing

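No member passed the threshold under any of the alternatives, among them leaving out each mouse and adding the replicate block (smallest adjusted p 0.387, with trend and robust options). Members with an unadjusted limma p under 0.05 numbered 1 of 34 with all mice, 2 of 35 with no filter and 2 of 32 with the upper 25% of signal. Quantile normalization gave 2 of 34, trend and robust options or the pseudocount 4, and a mouse left out 0 to 3. Among all genes, 1013 of 11090 were under 0.05 with all mice, 1660 of 22180 with no filter and 567 of 5545 with the upper 25%. They numbered 1078 of 11090 with quantile normalization, 1000 with trend and robust options, 1073 with the pseudocount and 771 to 1023 with a mouse left out. Over all genes 4 passed, 0 with the upper 25% of signal (567 at an unadjusted p under 0.05), 1 with the pseudocount, 1 with the replicate block, and 1 to 51 with a mouse left out, the 51 without WT mouse 3. The mitochondrial median ran from -0.12 to -0.039 and the peroxisomal from -0.11 to 0.013 with a mouse left out; both were lowest without KO mouse 2 and highest without KO mouse 3. The cause of these shifts was not tested. With array weights Acaa1b, Bdh1, Ehhadh and Hadha turned to 0.0049, 0.032, 0.061 and 0.010. Quantile normalization turned Acadvl to -0.0055 and Eci2 to -0.0083, and median centring Eci2 to -0.0049. With a mouse left out, differences that changed sign ran from -0.089 to 0.073 for Acaa1b, -0.040 to 0.090 for Acadvl, -0.11 to 0.11 for Bdh1, -0.48 to 0.086 for Cyp4a14, -0.00016 to 0.14 for Decr1, -0.031 to 0.078 for Eci2, -0.31 to 0.20 for Ehhadh, -0.11 to 0.038 for Etfb, -0.079 to 0.030 for Hadha and -0.48 to 0.00088 for Pdk4. The replicate block changed no other call; deviations of same-numbered mice correlated at 0.055, -0.19 and 0.15, so the numbers were not treated as pairs, and not every mouse correlated best with its own number. Differences under about 0.2 are near the error that 3 mice a group allow, and larger ones can be too. Slc25a20 at -0.23 (95% interval -0.47 to 0.004) and Vnn1 at -0.27 (-0.57 to 0.02) had intervals that included 0.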
